A study of Mus musculus with 6 samples.

Results

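The fibrinogen chains and the acute phase response were described in adult mouse kidney through 10 genes: the 3 fibrinogen chains Fga, Fgb and Fgg, the acute phase proteins Hp and Serpina3n, the interleukin-6 (IL-6) family receptors Osmr, Il6ra and Il6st, and the signalling genes Stat3 and Socs3. The genes were taken by name, from a list drawn up when the differences between the groups on these arrays were known, and each was read from the transcript cluster (the set of array probes that stands for 1 transcript unit) with the highest mean over the arrays among clusters with a single gene symbol. All 10 were found among 22180 genes so measured. The cluster was thus chosen by its mean level, and this mattered for 1 member, since Socs3 has 2 clusters and the others 1 each. The cluster of Socs3 left out had a mean of 2.80 log2 and a log2 fold change of -0.05 ± 0.08 (SE), and the one used had a mean of 4.19.

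RNA from a piece of each kidney was read on Mouse Gene 2.1 ST arrays of Affymetrix, with a single array for each sample. The Pax28 dKO group (3 arrays, numbered 1, 3 and 5) came from mice homozygous for floxed Pax2 and Pax8 alleles that carried Rosa26CreER, a tamoxifen-inducible Cre recombinase at a broadly active locus, so that deletion is not limited to tubule cells. The control group (3 arrays, numbered 2, 4 and 6) was Cre negative and also received tamoxifen, so the groups differ in the presence of Cre as well as in the deletion. All mice were injected with tamoxifen at 50 mg/kg on 3 consecutive days, first when 8 weeks old and then when 10 weeks old, and tissue was collected 14 days after dosing ended. Each group holds 2 females and 1 male, and the males are dKO 1 and control 4. Whether every array stands for its own animal is not stated, so the p-values reflect only the variation among these samples, which may be technical. Values are log2 expression, and a log2 fold change is dKO minus control, adjusted for sex, from limma over all genes.

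Fibrinogen is a plasma glycoprotein built of pairs of alpha, beta and gamma chains, which thrombin turns into the fibrin of a clot. It is made mainly by hepatocytes, and injured kidney tubules are also known to transcribe the chains. In the acute phase response, cytokines of the IL-6 family bind a specific receptor, which joins the shared signal transducer gp130 (Il6st) and activates Janus kinases, and these phosphorylate STAT3. STAT3 then enters the nucleus and, with C/EBP factors, induces acute phase genes and its own inhibitor SOCS3.

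The arrays carried kidney signal, with Umod between 11.41 and 11.88 log2 on all 6. Array medians lay between 3.81 and 3.87 log2. Pax8 was higher on the arrays labelled dKO, at 10.36 ± 0.24 log2 against 9.0 ± 0.10 log2 in controls (SD, n = 3 each), and Pax2 stood at 6.25 ± 0.21 log2 in dKO and 5.98 ± 0.18 log2 in controls. The probes of both genes are summarised over the transcript and the removed exons are not given, so these values check nothing, and every direction below is that of the arrays labelled dKO. Ucp1, a brown fat gene named after its values were seen, stood at 5.12, 4.74 and 3.87 log2 on dKO 1, 3 and 5, and at 7.77, 3.53 and 7.53 log2 on controls 2, 4 and 6. Levels below 3.38 log2, the upper edge of the lowest tertile of gene means, are called dim. In bulk tissue, a change in the number of cells of a type and a change in RNA per cell cannot be told apart.

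The 3 fibrinogen genes lie side by side on mouse chromosome 3 and respond together in the liver. Their promoter windows are shown because IL-6 response elements with the core CTGGGA are known from fibrinogen promoters. Each window runs from 250 bases before to 50 bases after the transcript start, in RefSeq GRCm38.p6, 5′ to 3′ on the strand of the gene. Capitals mark matches on either strand to CTGGGA and to TTCNNNGAA, the general STAT site, whose matches did not overlap those of CTGGGA in these windows.
Fgg (chr3:83007474-83007773, plus strand): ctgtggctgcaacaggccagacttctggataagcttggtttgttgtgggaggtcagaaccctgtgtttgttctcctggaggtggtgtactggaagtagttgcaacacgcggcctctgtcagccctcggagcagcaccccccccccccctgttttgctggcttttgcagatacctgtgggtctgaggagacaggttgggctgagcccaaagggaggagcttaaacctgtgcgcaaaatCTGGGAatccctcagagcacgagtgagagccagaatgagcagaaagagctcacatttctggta
Fga (chr3:83025903-83026202, plus strand): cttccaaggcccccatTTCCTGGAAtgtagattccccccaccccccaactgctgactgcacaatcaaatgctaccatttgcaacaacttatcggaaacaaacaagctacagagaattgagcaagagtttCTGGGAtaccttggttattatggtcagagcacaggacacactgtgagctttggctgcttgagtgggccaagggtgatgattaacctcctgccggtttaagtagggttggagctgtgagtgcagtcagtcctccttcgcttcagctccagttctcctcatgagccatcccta
Fgb (chr3:83049814-83050113, minus strand): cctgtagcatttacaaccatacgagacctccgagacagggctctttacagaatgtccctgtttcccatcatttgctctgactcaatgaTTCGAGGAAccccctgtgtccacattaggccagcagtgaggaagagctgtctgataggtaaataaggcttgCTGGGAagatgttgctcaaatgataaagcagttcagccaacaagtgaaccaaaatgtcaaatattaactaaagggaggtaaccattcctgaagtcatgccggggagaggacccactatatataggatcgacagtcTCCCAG

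CTGGGA was found in all 3 windows, at position 238 of the Fgg window, 130 of the Fga window and 160 and 295 of the Fgb window, counted from its 5′ end; the last of these is a match on the opposite strand. TTCNNNGAA was found in the windows of Fga and Fgb and not in that of Fgg. Of the 9 members with a window, 4 held CTGGGA (the 3 chains and Osmr, with 2 matches), where 31.8% of all 32851 windows did. TTCNNNGAA was in 3 of the 9 (Fga, Fgb and Socs3), where 8.30% of all windows held it. The matches are letters in a window and show no binding.

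Fgg and Fga were higher in dKO kidneys, Serpina3n, Osmr and Stat3 were higher by smaller amounts, and Fgb, Hp, Il6ra, Il6st and Socs3 did not pass. In all, 5 of 10 members passed an adjusted p of 0.05 as higher and none as lower, where 4.12% of all genes passed as higher, 3.08% as lower and 7.2% in either direction. Among genes not dim in both groups, as all members are, 5.87% passed as higher. At an unadjusted p under 0.05, limma gave 9 of 10 members as higher and 0 as lower, where 11.6% of all genes were higher and 10.5% lower at that level. The dKO arrays all lay above the control arrays for 8 of 10 members, where this held for 11.7% of all genes. The median log2 fold change was 0.75 over the members and -0.0062 over all genes. Since the list was drawn up with these differences known, the counts describe the members and support nothing further.

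**Figure D1:**
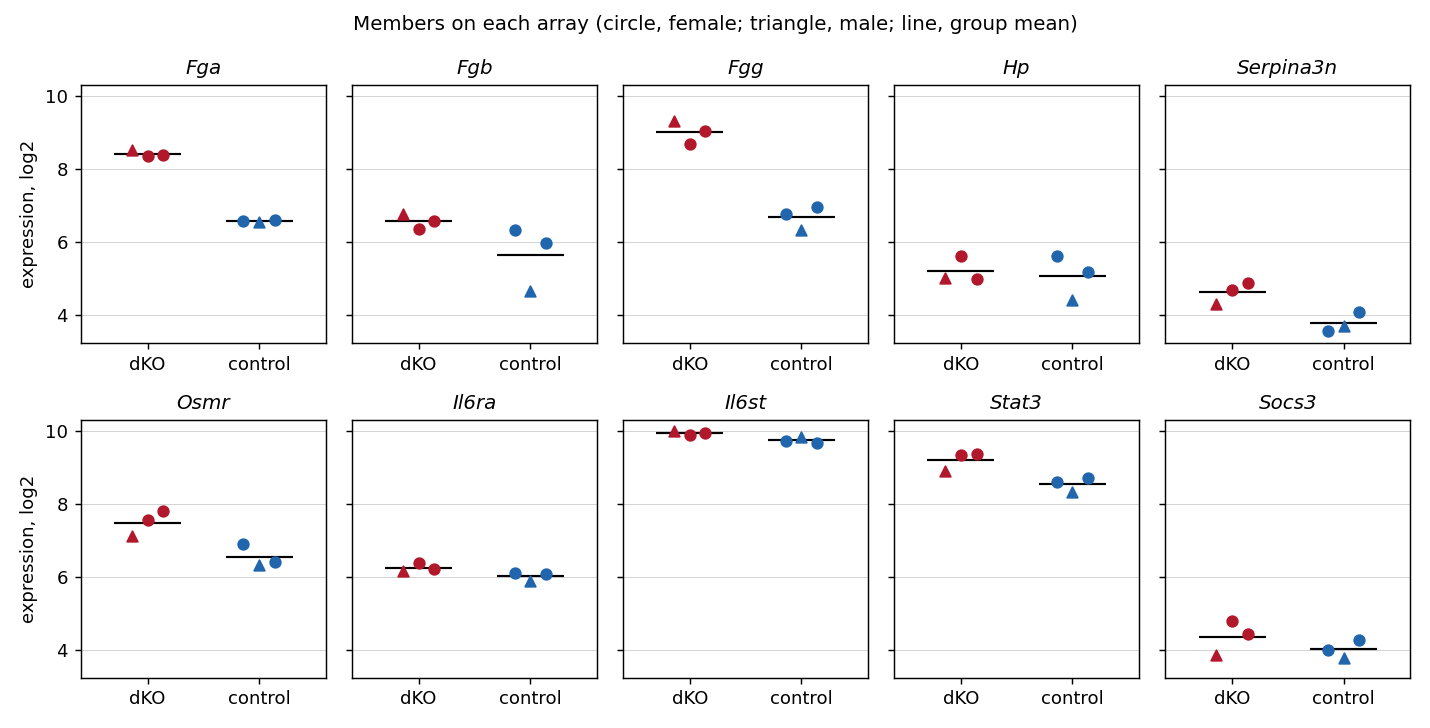
Expression (log2) of the 10 members on each array, dKO left of control, with circles for females, triangles for males and a line at the group mean. The groups stand far apart for Fga and Fgg, the male control 4 lies lowest for Fgb, and the groups overlap for Hp and Socs3.

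Fga encodes the alpha chain of fibrinogen. It stood at 8.51, 8.36 and 8.39 log2 on dKO 1, 3 and 5, and at 6.59, 6.55 and 6.61 log2 on controls 2, 4 and 6. The arrays of each group lay within 0.2 log2 of one another, and the groups did not overlap. The mean was 8.42 ± 0.08 log2 in dKO and 6.58 ± 0.03 log2 in controls (SD, n = 3 each), a log2 fold change of 1.84 ± 0.08 (SE) or 3.57-fold, with a limma adjusted p of 0.0011. By p, Fga ranked 2 of 22180 genes.

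Fgg encodes the gamma chain, which carries the main platelet-binding site of fibrinogen. It stood at 9.33, 8.68 and 9.04 log2 on dKO 1, 3 and 5, and at 6.77, 6.33 and 6.96 log2 on controls 2, 4 and 6. Every dKO array lay well above every control, and the highest dKO and the lowest control value were those of the males. Fgg thus had a log2 fold change of 2.33 ± 0.22 (SE; 95% interval 1.81 to 2.84; limma adjusted p = 0.0043), and among rises alone Fgg ranked 7 over all genes. Fga and Fgg kept their calls under all 15 alternatives tried.

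Fgb encodes the beta chain, whose synthesis is held to limit assembly of the protein in liver cells. It stood at 6.77, 6.36 and 6.58 log2 on dKO 1, 3 and 5, and at 6.32, 4.67 and 5.98 log2 on controls 2, 4 and 6. The groups did not overlap, but dKO 3 and control 2 lay close together and control 4 lay far below the other controls. The log2 fold change of 0.91 ± 0.35 (SE; 95% interval 0.09 to 1.74) did not pass (limma adjusted p = 0.18). It was 0.31 without control 4 or without dKO 1, the males, either of which leaves a comparison of the females (adjusted p = 0.31).

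The chains were set against each other through their within-array differences. Fgg minus Fgb was 2.56, 2.32 and 2.47 log2 on dKO 1, 3 and 5, and 0.45, 1.67 and 0.98 log2 on controls 2, 4 and 6, so that the dKO arrays lay above the controls. Fga minus Fgb was 1.74, 2.0 and 1.81 log2 on dKO 1, 3 and 5, and 0.27, 1.88 and 0.62 log2 on controls 2, 4 and 6, and the groups overlapped at control 4. The fold changes of Fgg and Fgb differed by 1.41 log2 (exact two-sided permutation p = 0.1, the smallest that 3 against 3 arrays allow), those of Fga and Fgb by 0.92 (exact p = 0.3) and those of Fgg and Fga by 0.49 (exact p = 0.2). Adjusted over the 3 pairs, each exact p was 0.3. No pair could have passed 0.05 in this design, and sex was not in the test, so it says nothing on whether the chains differ in response.

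No flanking gene of the fibrinogen cluster passed. Of the 5 protein-coding genes on each side in RefSeq order, 9 were measured and 1 was not analysed here. All 9 missed the threshold in limma. An unadjusted p under 0.05 was found for 2, where 11.6% of all genes were higher and 10.5% lower at that level. Npy2r, Rbm46 and Dchs2 were dim in both groups. The log2 fold changes of the 9 ran from -0.39 (Npy2r) to 0.38. The nearest were Lrat, which esterifies retinol and lies beside Fgg, at -0.16 ± 0.07 (SE; adjusted p = 0.26), and Plrg1, a splicing factor gene beside Fgb, at 0.15 ± 0.08 (adjusted p = 0.36).

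**Figure D2:**
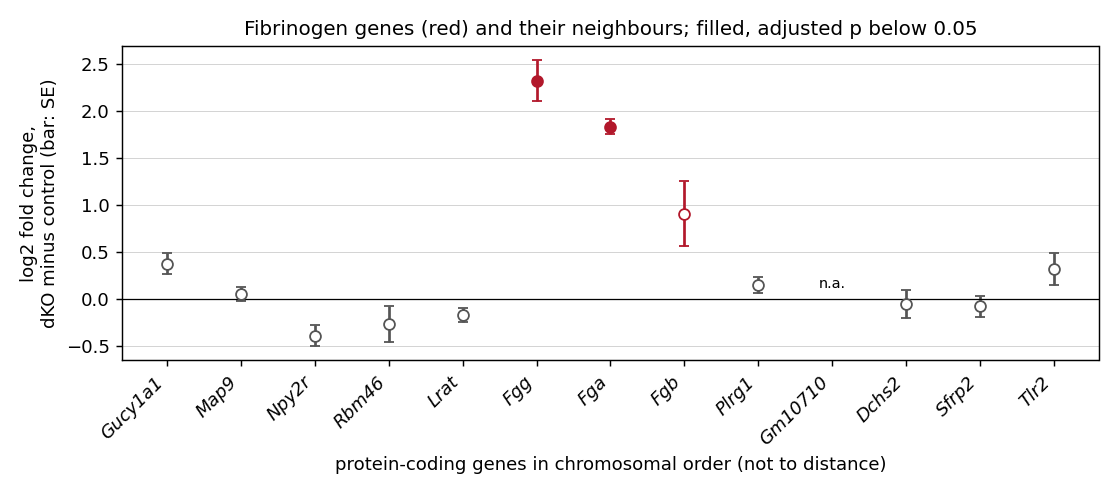
Log2 fold change (dKO minus control, bar SE) of the fibrinogen genes in red and of 5 protein-coding genes on each side in chromosomal order; filled points passed an adjusted p of 0.05 and n.a. marks a gene not analysed here. Fgg and Fga stand at 2.33 and 1.84, and the flanking genes between -0.39 and 0.38.

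Serpina3n and Hp are the acute phase proteins among the members. Serpina3n, a serine protease inhibitor related to human alpha-1-antichymotrypsin, was higher in dKO. It stood at 4.31, 4.69 and 4.90 log2 on dKO 1, 3 and 5, and at 3.56, 3.70 and 4.08 log2 on controls 2, 4 and 6. The groups did not overlap, with dKO 1 the lowest of its group and control 6 the highest of its own. The difference, as log2 fold change, was 0.85 ± 0.16 (SE; limma adjusted p = 0.028). The call was lost without control 2 (adjusted p = 0.054), control 6 (0.065), dKO 3 (0.081) or dKO 5 (0.096). Of 5 measured Serpina3 genes, Serpina3n was the only call, and 3 were dim in both groups; the other 6 on that list were not analysed here. The Serpina3 genes are close copies of one another, and cross-hybridisation between them was not tested.

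Hp encodes haptoglobin, which binds free haemoglobin. It stood at 5.01, 5.63 and 4.98 log2 on dKO 1, 3 and 5, and at 5.61, 4.43 and 5.19 log2 on controls 2, 4 and 6. The groups overlapped throughout. Its log2 fold change of 0.13 ± 0.22 (SE; 95% interval -0.40 to 0.66) did not pass (limma adjusted p = 0.79), and it was -0.094 in the females. Haptoglobin is also transcribed by adipocytes. None of 7 measured adipocyte markers passed in limma in either direction, and none had an unadjusted p under 0.05. Their summed level was 9.54, 9.96 and 9.35 log2 on dKO 1, 3 and 5, and 10.54, 8.96 and 10.21 log2 on controls 2, 4 and 6. Control 4 was lowest and control 2 close to or at the top for both Hp and the adipocyte markers; the part of fat in the level of Hp was not tested.

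**Figure D3:**
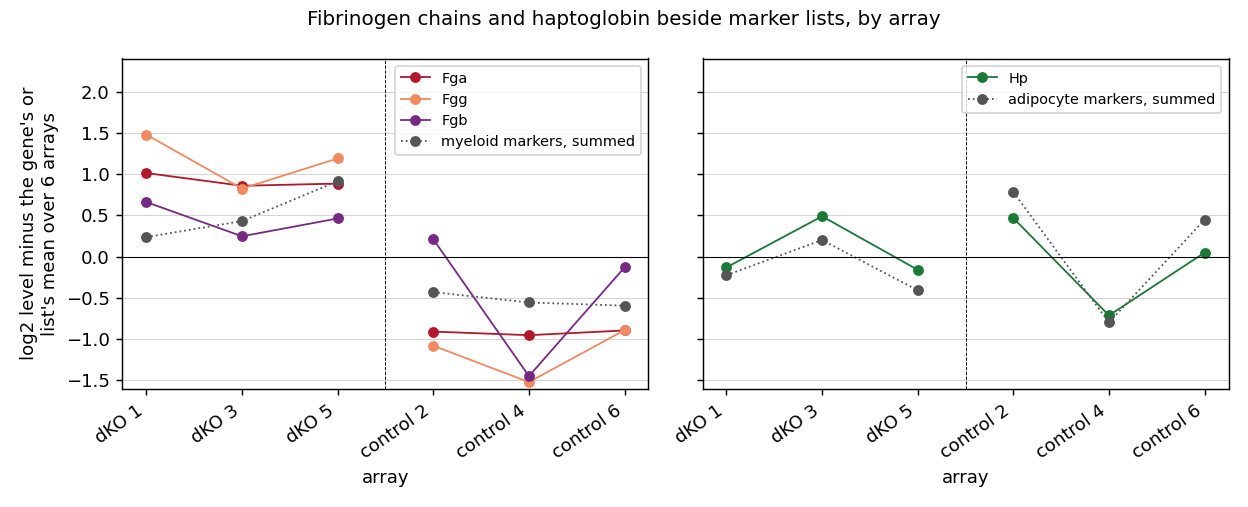
Log2 level minus its mean over the 6 arrays, by array, dKO left of control: Fga, Fgg and Fgb with the summed level of 14 myeloid markers (left) and Hp with that of 7 adipocyte markers (right). Fga is flat within each group while the myeloid sum is highest on dKO 5, and Hp and the adipocyte sum are both lowest on control 4.

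Of the receptors, Osmr changed. It encodes the subunit that pairs with gp130 to bind oncostatin M, and stood at 7.12, 7.56 and 7.79 log2 on dKO 1, 3 and 5, and at 6.89, 6.32 and 6.42 log2 on controls 2, 4 and 6. The groups did not overlap, and dKO 1 and control 2 were the closest pair. Osmr had a log2 fold change of 0.95 ± 0.14 (SE; limma adjusted p = 0.017), and the call was lost without dKO 5 (adjusted p = 0.061).

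Il6ra, the receptor subunit that binds IL-6 itself, stood at 6.15, 6.39 and 6.21 log2 on dKO 1, 3 and 5, and at 6.10, 5.89 and 6.09 log2 on controls 2, 4 and 6. Its log2 fold change of 0.22 ± 0.08 (SE; 95% interval 0.02 to 0.42) did not pass (limma adjusted p = 0.18). Il6st, encoding gp130, stood at 9.98, 9.87 and 9.95 log2 on dKO 1, 3 and 5, and at 9.72, 9.84 and 9.67 log2 on controls 2, 4 and 6. For Il6st, the log2 fold change of 0.19 ± 0.08 (SE; 95% interval 0.01 to 0.37) did not pass (limma adjusted p = 0.20). For both genes the groups did not overlap, though by small margins.

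Among all 7 measured IL-6 family receptors, 1 rose (Osmr) and 1 fell (28.6% called, against 7.2% of all genes), with a median of 0.19. The fall was in Cntfr, which binds ciliary neurotrophic factor: 5.80 ± 0.07 log2 in dKO and 6.55 ± 0.43 log2 in controls (SD, n = 3 each), a log2 fold change of -0.75 ± 0.14 (SE; limma adjusted p = 0.027), lost without control 2, control 6, dKO 3 or dKO 5 (up to 0.10). None of the 9 measured ligands of the family passed in limma. At an unadjusted p under 0.05, 2 of these ligands were higher and 0 lower, where 11.6% and 10.5% of all genes were. Il6 itself was dim on every array, at 2.07, 1.88 and 2.07 log2 on dKO 1, 3 and 5, and at 1.96, 2.10 and 2.07 log2 on controls 2, 4 and 6. Il11, Osm and Ctf2 were dim in both groups too, with log2 fold changes of 0.14, -0.03 and 0.05. Clcf1, a ligand of the Cntfr complex, stood at 4.92 ± 0.40 log2 in dKO and 4.29 ± 0.12 log2 in controls (SD, n = 3 each), a log2 fold change of 0.63 ± 0.16 (SE) that did not pass (limma adjusted p = 0.066). The others had log2 fold changes of 0.20 (Lif), 0.23 (Ctf1, cardiotrophin), -0.17 (Il27) and -0.07 (Ebi3).

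Stat3, the transcription factor that carries the IL-6 signal to the nucleus, stood at 8.90, 9.33 and 9.37 log2 on dKO 1, 3 and 5, and at 8.59, 8.34 and 8.71 log2 on controls 2, 4 and 6. The groups did not overlap, and in each the male was the lowest array. Stat3 had a log2 fold change of 0.65 ± 0.08 (SE; 95% interval 0.46 to 0.85; limma adjusted p = 0.0097), and it passed in all 6 fits that omit an array (adjusted p no higher than 0.049). Of 9 measured Janus kinases and STATs, Stat3 was the only call (11.1% called, against 7.2% of all genes). The median was 0.22 (0.13 with dim groups set to 3.38). At an unadjusted p under 0.05, limma gave 5 of the 9 as higher and 0 as lower, where 11.6% and 10.5% of all genes were. Jak1, the kinase most used by gp130, did not pass, at 0.13 ± 0.08 (adjusted p = 0.38).

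Socs3, the feedback inhibitor induced by STAT3, stood at 3.85, 4.79 and 4.45 log2 on dKO 1, 3 and 5, and at 4.01, 3.78 and 4.27 log2 on controls 2, 4 and 6. The groups overlapped, with dKO 1 among the controls and dKO 3 and 5 above them. The log2 fold change of 0.34 ± 0.14 (SE; 95% interval 0.01 to 0.68) did not pass (limma adjusted p = 0.21). It was 0.21 without dKO 3 and 0.15 when its clusters were averaged. None of 16 inhibitors of the pathway (Socs, Cish, Pias and Ptpn genes) passed in limma, and their median was 0.11. At an unadjusted p under 0.05, 5 of the 16 were higher and 1 lower, where 11.6% and 10.5% of all genes were.

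**Figure D4:**
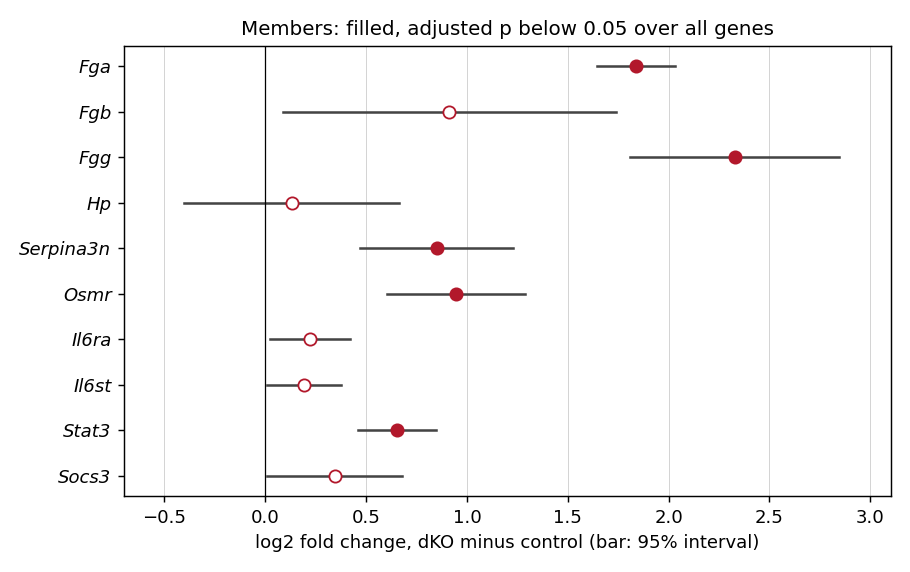
Log2 fold change of each member (dKO minus control) with its 95% interval from limma, ordered by role; filled points passed an adjusted p of 0.05 over all genes. Fgg, Fga, Serpina3n, Osmr and Stat3 are filled, and the interval of Hp spans 0.

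Of 17 measured targets and partners of STAT3 and C/EBP factors, 6 rose and 1 fell. Over all genes, 4.12% passed as higher and 3.08% as lower. At an unadjusted p under 0.05, limma gave 10 of the 17 as higher and 3 as lower, against 11.6% and 10.5% of all genes. The median of the list was 0.46 (0.34 with dim groups set to 3.38). Ccl2, a monocyte-attracting chemokine (0.81 ± 0.12, SE), Bcl3, a nuclear co-regulator of NF-kappaB (0.82 ± 0.13), Junb, an AP-1 subunit (0.91 ± 0.16), the survival factor Mcl1 (0.66 ± 0.12) and the adhesion molecule Icam1 (0.81 ± 0.15) had the smallest limma adjusted p-values among the rises, between 0.014 and 0.028. Omitting control 2 or control 6 ended each of these calls (adjusted p up to 0.11); Bcl3 and Mcl1 were lost without dKO 3 or dKO 5 too, and Junb without dKO 5. The fall was in Hif1a, the oxygen-regulated transcription factor (-0.39 ± 0.09; limma adjusted p = 0.049), which missed the threshold whichever array was omitted (adjusted p up to 0.15). Cebpb and Cebpd, the C/EBP factors of the acute phase, stood at 0.49 ± 0.15 and 0.11 ± 0.15 and did not pass (limma adjusted p = 0.12 and 0.73).

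Among positive acute phase proteins, those that rise in plasma during inflammation, 10 of 33 measured genes passed as higher and 0 as lower. Of all genes, 4.12% passed as higher and 3.08% as lower. The 10 include the members Fga, Fgg and Serpina3n. The median over the 33 was 0.37, and 6 further genes of the list were not analysed here. At an unadjusted p under 0.05, limma gave 16 as higher and 0 as lower, where 11.6% and 10.5% of all genes were. The smallest p-values belonged to Fga, Lcn2, which binds bacterial siderophores (3.11 ± 0.16, SE), the lipopolysaccharide co-receptor Cd14 (2.0 ± 0.10), the leucine-rich glycoprotein Lrg1 (1.26 ± 0.08) and the copper-binding ferroxidase Cp (1.62 ± 0.15), with limma adjusted p-values between 0.0011 and 0.0042. These 5 passed whichever array was omitted.

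Lrg1 stood at 4.87, 4.74 and 4.63 log2 on dKO 1, 3 and 5, and at 3.49, 3.54 and 3.43 log2 on controls 2, 4 and 6, an SD of 0.12 in dKO and 0.05 in controls. The groups did not overlap. The other rises were Fgg, Serpina3n, Lbp, Saa2 and Saa4. The lipopolysaccharide-binding protein Lbp rose by 0.53 ± 0.10 (SE; limma adjusted p = 0.031), though its groups overlapped. The serum amyloid genes Saa2 and Saa4 had dim means in controls, so their mean rises were at least 1.39-fold and at least 1.47-fold. Saa2 may share probes with near-identical genes. Saa4 stood at 4.91 log2 on the male dKO 1 and at 3.45 and 3.43 log2, near the dim limit, on dKO 3 and 5. On controls 2, 4 and 6 it stood at 2.54, 3.38 and 2.90 log2, and its bound rests mostly on dKO 1. Saa2, Saa4 and Lbp were picked for naming once their values were known. Lbp and Saa4 lost their calls without control 2, dKO 3 or dKO 5 (adjusted p up to 0.11), and Lbp without control 6 too.

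Other classical acute phase genes did not pass. Crp, Apcs, Orm2, Orm3, Hamp and Hpx were dim in both groups. The metallothionein Mt2, induced by glucocorticoids and zinc, stood at 0.37 ± 0.22 (SE), Saa3 at 0.34 ± 0.20 and the complement factor Cfb at 0.10 ± 0.08, and none passed (limma adjusted p = 0.40, 0.39 and 0.57). Genes named in this paragraph were chosen after their values were seen.

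**Figure D5:**
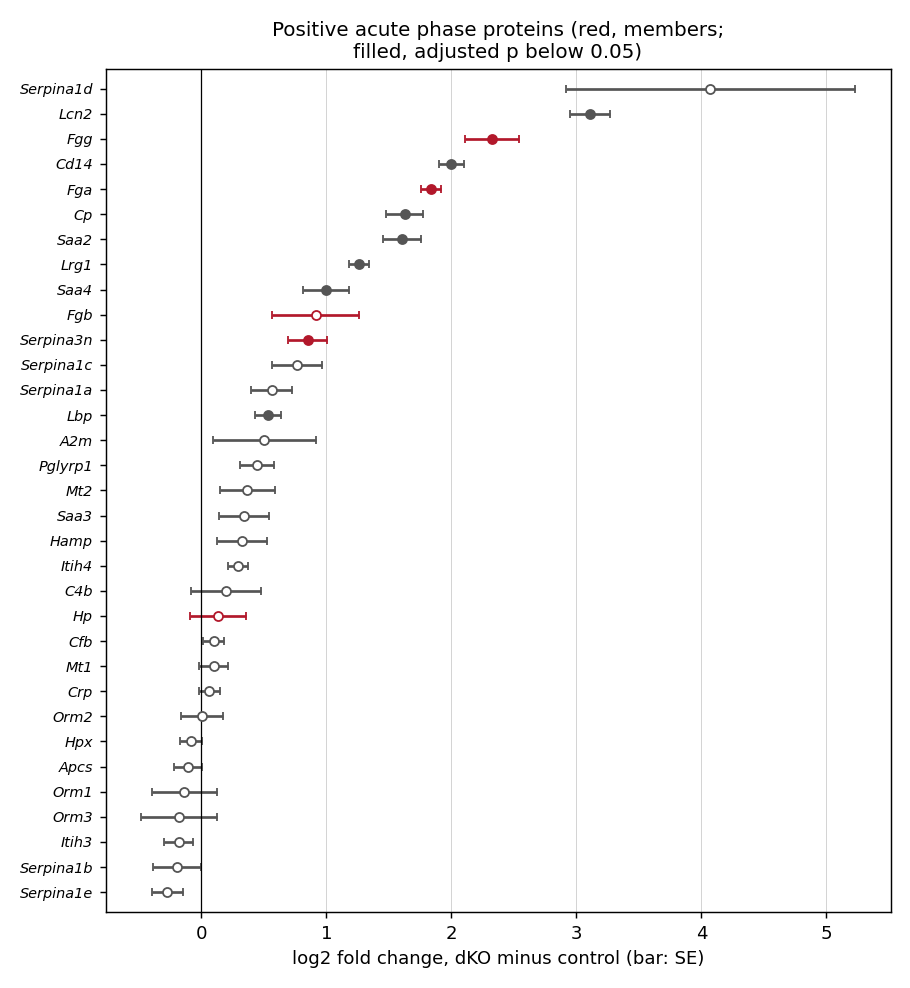
Log2 fold change (dKO minus control, bar SE) of 33 positive acute phase genes, members in red, with filled points past an adjusted p of 0.05. The filled points run from 0.53 (Lbp) to 3.11 (Lcn2), all to the right of 0, and Serpina1d has the widest error.

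Negative acute phase proteins, which fall in plasma during inflammation, gave 1 rise and 2 falls among 9 measured genes, with a median of -0.16. These calls are 33.3% of the list, against 7.2% of all genes. The rise was in Ttr, the thyroxine carrier transthyretin: 11.46, 11.07 and 11.37 log2 on dKO 1, 3 and 5, and 9.73, 10.34 and 9.0 log2 on controls 2, 4 and 6. The groups did not overlap, and the log2 fold change was 1.61 ± 0.23 (SE; limma adjusted p = 0.015), lost without dKO 5 (adjusted p = 0.052). Apom, a carrier of sphingosine-1-phosphate (-0.96 ± 0.19), and the lipoprotein gene Apoa2 (-0.48 ± 0.10) fell (limma adjusted p = 0.035 and 0.038). Apom was lost without control 2, control 6, dKO 3 or dKO 5 (adjusted p up to 0.12), and Apoa2 whichever array was omitted (up to 0.13).

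Genes of coagulation and fibrinolysis changed in both directions. Of 22 coagulation factors and inhibitors, 1 rose and 2 fell (median 0.0073), which is 13.6% called against 7.2% of all genes. Pros1, encoding the anticoagulant protein S, rose by 0.97 ± 0.10 (SE; limma adjusted p = 0.0060). The cofactor F5 was lower, with -1.65 ± 0.24 (adjusted p = 0.014), a call that ended without control 2 or control 6 (up to 0.067), as was F3, tissue factor, with -0.40 ± 0.09 (adjusted p = 0.0497), a call that ended whichever array was omitted and whose groups overlapped. F3 also differed between the sexes (male minus female 0.99 log2, limma adjusted p = 0.0064). F2, encoding prothrombin, was dim in both groups.

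Of 10 fibrinolysis genes, 2 rose and 2 fell (median 0.03), which is 40% called against 7.2% of all genes. The rises were in S100a10 (0.70 ± 0.09, SE) and its partner Anxa2 (0.58 ± 0.09), which together bind plasminogen at the cell surface (limma adjusted p = 0.011 and 0.016). The falls were in the urokinase gene Plau (-0.75 ± 0.13; adjusted p = 0.025) and the plasmin inhibitor gene Serpinf2 (-1.12 ± 0.22; adjusted p = 0.033). S100a10 passed whichever array was omitted; the other 3 did not without control 2 or control 6, and Plau (also without dKO 3 or dKO 5), Anxa2 (also without dKO 1, dKO 3 or control 4) and Serpinf2 (also without dKO 5) reached adjusted p-values up to 0.12. Serpinf2 also differed between the sexes, and its groups overlapped.

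Of 16 measured genes for proteins with a fibrinogen domain, 3 rose (Fga, Fgg and Fgl2) and 2 fell, which is 31.2% called against 7.2% of all genes. Their median was 0.14 (0.13 with dim groups set to 3.38). Fgl2, a membrane prothrombinase, rose by 0.45 ± 0.09 (SE; limma adjusted p = 0.029), lost without control 2, control 6, dKO 3 or dKO 5 (adjusted p up to 0.11). Fgl1, a hepatocyte-secreted relative, stood at 2.78, 3.11 and 3.16 log2 on dKO 1, 3 and 5, all dim, and at 4.37, 4.11 and 4.22 log2 on controls 2, 4 and 6, at least 1.81-fold lower in dKO (adjusted p = 0.0018). The tenascin gene Tnn fell by 1.48 on the log2 scale (SE 0.17; adjusted p = 0.0077). Of 12 fibrinogen and fibrin receptors, 2 rose (Itgax, the alpha chain of integrin CR4, at 0.68 ± 0.13, and Icam1) and none fell (limma adjusted p = 0.032 and 0.028). Their calls are 16.7% of the list, against 7.2% of all genes, and the median was 0.27. At an unadjusted p under 0.05, 6 of the receptors were higher and 1 lower, where 11.6% and 10.5% of all genes were. Itgax missed the threshold whichever array was omitted (adjusted p up to 0.10).

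Markers of other cells were set beside the members. Of 12 hepatocyte markers, 1 rose (Cyp3a11, 1.11 ± 0.23, SE, limma adjusted p = 0.037) and 1 fell (Apoa2), which is 16.7% called against 7.2% of all genes. The summed level of the 12 was between 8.43 and 8.78 log2 in dKO and between 8.54 and 9.19 log2 in controls. Of the 12, F2, Serpinc1 and Hpx were dim in both groups and the other 9 were not, with group means up to 7.02 log2 (C8a in controls). Alb stood at 6.99 ± 0.82 log2 in dKO and 6.89 ± 0.88 log2 in controls (SD, n = 3 each). The call of Cyp3a11 was lost without control 2, control 6, dKO 3 or dKO 5 (adjusted p up to 0.13).

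Macrophage and other myeloid markers were higher in dKO together with the 5 called members: 10 of 14 passed as higher and 0 as lower (median 1.19). Over all genes, these shares were 4.12% and 3.08%. Of the 10, only C1qa, C1qb and Cd68 stayed past the threshold in every fit that omits an array. C1qc narrowly missed it in the fit that omits control 2 (limma adjusted p = 0.051). Adgre1, Cx3cr1, Fcgr1, Lyz2, Mrc1 and Ptprc each missed it when either of the female controls was omitted. Mrc1 also depended on dKO 3, and Ptprc on dKO 3 and dKO 5. The summed level of the 14 markers was 10.33, 10.52 and 11.01 log2 on dKO 1, 3 and 5, and 9.66, 9.54 and 9.50 log2 on controls 2, 4 and 6. The myeloid sum, Osmr, Stat3 and Serpina3n shared an order on the dKO arrays, with dKO 1 lowest and dKO 5 highest. They shared none on the controls, where the myeloid sum and Osmr were highest on control 2 and Stat3 and Serpina3n on control 6. Fga and Fgg were highest on dKO 1, the only male of that group. The orders on the dKO arrays thus cannot be told apart from a sex difference. Fibroblast and pericyte markers passed as higher for 4 of 8 genes (Col1a1, Col3a1, Col1a2 and Dcn) and as lower for 0. Their median was 0.63, or 0.59 with dim groups set to 3.38. Omitting control 2 or control 6 ended the call of Dcn (limma adjusted p up to 0.059), and the collagen genes passed whichever array was omitted. The summed level of the 8 was between 10.91 and 11.14 log2 in dKO and between 10.04 and 10.65 log2 in controls.

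Lymphocyte markers gave 3 rises among 9, in Cd4, Ighm and Jchain, which is 33.3% called against 7.2% of all genes. Cd4 was lost without control 2 or control 6 (limma adjusted p up to 0.055). Jchain was lost without dKO 1, control 4, dKO 5 or control 6 (up to 0.071). Ighm was lost in every fit that omits an array except that without dKO 3 (up to 0.13). The summed level of the 9 was 10.77 to 12.61 log2 in dKO and 10.11 to 11.65 log2 in controls. The groups of Ighm and Jchain overlapped, and both genes were higher in males (limma adjusted p = 0.016 and 0.0041). Ighm, the highest of the 9, stood at 12.12 log2 on the male dKO 1 and 11.13 log2 on the male control 4. Platelet markers gave 1 rise among 6 (16.7% called), Pf4, which was dim in controls. Its call was lost without control 2 or control 6 (limma adjusted p up to 0.12). The summed level of the platelet markers was 6.20 to 6.31 log2 in dKO and 6.14 to 6.25 log2 in controls. None of 11 neutrophil markers passed in limma (0 higher and 1 lower at an unadjusted p under 0.05), and 7 of them were dim on every array; their sum was 6.41 to 6.51 log2 in dKO and 6.34 to 6.54 log2 in controls. None of 7 endothelial markers passed (0 higher and 1 lower at an unadjusted p under 0.05), with sums of 11.23 to 11.31 log2 in dKO and 11.19 to 11.53 log2 in controls. At that unadjusted level, 11.6% of all genes were higher and 10.5% lower. Of 9 kidney tubule and glomerulus markers 3 fell, Aqp2 and Cdh16 among them, and none rose (33.3% called). Aqp2 and Cdh16 lost their calls without control 2 or control 6 (limma adjusted p up to 0.099), and Cdh16 without dKO 5 too. The summed level of the 9 was 13.90 to 13.91 log2 in dKO and 14.02 to 14.05 log2 in controls. The part of these cell types in the members' levels was not tested.

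None of the members differed between the sexes past the threshold in limma, where 1.87% of all genes did, and 4 of 10 had an unadjusted p under 0.05, where 16.1% of all genes did. The sex difference, male minus female, was below 0 for 8 of 10 members, against 54.9% of all genes, and ran from -0.63 (Hp) to 0.11 (Il6st). None showed a genotype effect that depended on sex past the threshold, where 0.00451% of all genes did (1 gene), and 2 of 10 had an unadjusted p under 0.05, where 6.99% of all genes did. Those with the largest interaction terms were Fgb and Fgg. Fgb differed by 2.11 log2 between the males and by 0.31 between the females, an interaction of 1.79 ± 0.26 (SE; limma adjusted p = 0.35). Fgg differed by 3.0 log2 between the males and by 1.99 between the females (interaction 1.0 ± 0.26; limma adjusted p = 0.62). With 1 male per group, a sex effect and a single array cannot be told apart.

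The genes most like the mean of the 3 fibrinogen chains were found over the 6 arrays by the root mean square difference of values centred on each gene's own mean, among genes whose mean over the arrays was not dim. They were Stc1, encoding the hormone stanniocalcin (0.18 log2), Aoc1, a diamine oxidase (0.24), the interferon-induced Oasl2 (0.24), the collagen gene Col3a1 (0.26) and the immediate early gene Fos (0.26). Stc1 stood at 7.94, 7.13 and 7.40 log2 on dKO 1, 3 and 5, and at 6.11, 5.02 and 5.94 log2 on controls 2, 4 and 6, with dKO 1 highest and control 4 lowest as for Fgg and Fgb.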

How the data were processed

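Arrays were hybridised with 400 ng of total RNA from each of 6 adult mouse kidney samples. The authors deposited log2 expression values per transcript cluster; the submitters' processing notes list RMA, limma and R 3.4.0 but not what each did. No source used here states filters or the genome build. The values were used as deposited. Of 41345 clusters, 23521 have 1 gene symbol in the platform annotation, 1814 several and 16010 none; 23328 of the first were matched by gene identifier to RefSeq GRCm38.p6, with 0 symbols changed. Per gene, the cluster with the highest mean was kept, which gave 22180 genes.

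limma 3.58.1 in R 4.3.3 was fitted to all genes with genotype and sex (3 residual and 6.72 total degrees of freedom) and Benjamini-Hochberg adjustment over all genes at 0.05. The fit was tested on simulated data with independent noise for each gene and no sex effect. Such data do not cover variation that the genes of an array share. Sex and genotype by sex came from the same tool, the interaction with 2 residual degrees of freedom. The within-array differences between fibrinogen chains were tested by exact permutation, a test chosen after the values were seen. The members, gene lists and markers were chosen with earlier results of these data known. Named are all members, all measured IL-6 family ligands and the 5 genes most like the fibrinogen mean. In each list, up to 5 called genes ranked by p and a lone call in a direction are named, though not every called kidney marker is. The search for promoter motifs and the flanking genes were added later. Alternatives dropped sex from the model, used the females, omitted each array in turn, or applied another prior, array weights, quantile normalization, median centring, dim genes left out, averaged clusters and every row tested. The 6 arrays limit the precision.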

Additional observations from a re-analysis of the deposited data

How the results depend on the processing

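Of 150 recomputed log2 fold changes of the members (10 members, 15 alternatives each), 136 kept their direction and their side of the threshold, 11 kept the direction but no longer passed, and 3 turned round. Those 3 were all Hp, at -0.094 in the females alone and without dKO 1 or control 4. With sex in the model these are the same comparison, so they are repeats within the 150. Dropping sex, another prior, dim genes left out and every row tested cannot move a member's log2 fold change in this design, only its p-value. With single arrays left out, Hp ran from -0.094 to 0.38. The count of called members was 5 of 10. It was 2 (Fga and Fgg) without sex in the model and 2 when every row was tested. With single arrays left out it ran from 3 (without dKO 5) to 5. The log2 fold change ranged from 1.77 to 1.86 for Fga, 1.99 to 2.53 for Fgg, 0.31 to 1.18 for Fgb, 0.67 to 0.97 for Serpina3n, 0.79 to 1.06 for Osmr, 0.61 to 0.70 for Stat3 and 0.15 to 0.48 for Socs3. Stat3 missed the threshold without sex (limma adjusted p = 0.089) and with every row tested (0.0504). The count of called genes was 1596, against 471 without sex, 302 with every row tested (41345 rows) and between 344 and 1249 with single arrays left out (344 without control 2, 356 without control 6, 529 without dKO 5, 613 without dKO 3). Among the members no sex difference and no dependence on sex passed under array weights, both scalings, dim genes left out or averaged clusters. No paired analysis was possible because the groups share no replicate number. Median centring moved the median of all genes to -0.04. The cause of these changes was not tested.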

Other observations

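Serpina1d, an alpha-1-antitrypsin gene of the positive acute phase list, was named after its values were seen. It stood at 8.53, 8.91 and 8.56 log2 on dKO 1, 3 and 5, and at 3.17, 8.57 and 2.04 log2 on controls 2, 4 and 6. Control 4 lay with the dKO arrays and controls 2 and 6 were dim, the widest gap within a group among the 33 genes of that list. Its log2 fold change was 4.07 ± 1.16 (SE), the highest of all 22180 genes, and did not pass (limma adjusted p = 0.090); in the females alone it passed, and since both of their controls were dim the rise there was at least 5.36 log2, counted from 3.38. The other measured Serpina1 genes, a to c and e, which are close copies, had log2 fold changes between -0.27 and 0.77 and none passed.

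Apoh, a hepatocyte marker also named after its values were seen, stood at 6.31 log2 on dKO 1, at 3.03 and 2.57 on dKO 3 and 5, and at no more than 3.71 log2 on the controls. Bcl6, a transcriptional repressor on the STAT3 list, stood at 6.84, 6.60 and 6.67 log2 on dKO 1, 3 and 5, and at 7.11, 9.04 and 7.81 log2 on controls 2, 4 and 6, with no overlap and a log2 fold change of -1.29 ± 0.30 (SE) that did not pass (limma adjusted p = 0.055), except in the fit without control 2.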
